A study of Mus musculus and Rattus norvegicus with 30 samples.

Results

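Expression of 9 genes from families that move chloride across membranes was followed in dorsal root ganglia, which hold the cell bodies of the sensory neurons beside the spinal cord. They are the chloride cotransporters Slc12a2 and Slc12a5, the anoctamins Ano1, Ano2, Ano3 and Ano6, the CLC proteins Clcn3 and Clcn6, and the bestrophin Best1. The members were taken by gene symbol from the annotated genes, 9 of 54315 features in the mouse count table and 9 of 39281 in the rat count table. In mice, RNA of the L3 and L4 ganglia of 1 animal per library was sequenced 28 days after spared nerve injury (SNI), a lesion of the sciatic nerve that severs its common peroneal and sural branches but leaves the tibial branch intact, or after sham surgery with the nerve only exposed. Mice were adults of 2 inbred strains. BALB/c gave 6 libraries of sham and 4 of SNI mice, B10.D2 gave 5 of each, and each group held both sexes. In rats, the L5 ganglia of 3 pooled male Wistar animals per library were taken 21 days after transection of the L5 spinal nerve (SNT) or sham surgery, with 4 libraries in each group. The labels give no transgene and no drug. The ganglia are mixed tissue, and SNI cuts the axons of only part of their neurons, whereas SNT cuts the whole nerve of the ganglion that was taken.

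Chloride sets how a neuron answers when anion channels open. Slc12a2 (NKCC1) carries chloride into the cell together with sodium and potassium, and Slc12a5 (KCC2) carries it out together with potassium. Sensory neurons are known for a high internal chloride level, so that opening of chloride channels, such as the GABA-A receptor, can depolarise them. Ano1 is a calcium-activated chloride channel of nociceptors that responds to heat, Ano2 is a calcium-activated chloride channel known from olfactory neurons, Ano3 is known as a partner of the sodium-activated potassium channel Slack in sensory neurons, and Ano6 scrambles membrane phospholipids. Clcn3 and Clcn6 exchange chloride for protons in endosomes and late endosomes. Best1 is a calcium-activated chloride channel best known from the retinal pigment epithelium.

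Mouse libraries held 29.99 M to 41.9 M counts and rat libraries 11.95 M to 17.9 M counts, so that 3 counts, the level taken here as the floor, equal 0.0716 to 0.1 CPM (counts scaled to a library of 1 M counts) in mouse and 0.168 to 0.251 CPM in rat. Levels are given as CPM scaled by TMM factors, and a log2 fold change is called when its adjusted p-value is under 0.05. Markers of sensory neurons were detected in the mouse libraries for all 13 genes of the list, with summed levels of 9521 to 12399 CPM. The rat table listed 6 of 12 neuron markers at 0 in all 8 libraries, among them Uchl1 and Tubb3, which neurons use broadly, so a rat gene at 0 is only said to be listed at 0. Among rat libraries, sham 4 and SNT 1 stood apart. On the first principal component of all tested features, which held 71.5% of the variance, the other sham libraries lay at -48.7 to -35.7 and the other SNT libraries at 30.6 to 49.9, whereas sham 4 lay at -6.33 and SNT 1 at 1.09. The mean log2(CPM + 1) of 7 injury-induced genes was 3.85 to 4.07 in the other sham libraries and 5.09 in sham 4, and it was 5.44 in SNT 1 and 5.67 to 5.96 in the other SNT libraries. Rat changes of the members are therefore given with and without these libraries. Both were picked after the data were seen, for lying between the groups. Larger changes and more calls without them tend to follow from that choice. Calls went from 27.4% to 43.9% of all tested features, and the values without them are a description, not added support.

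All 9 members had counts in mouse, and their order was read per kb of annotated exon. Ano3 had the highest level, with 57.04 ± 5.61 CPM per kb in BALB/c sham (SD, n = 6) and 65.96 ± 3.32 in B10.D2 sham (SD, n = 5). It was followed by Slc12a2 with 33.9 ± 1.98 and 27.9 ± 1.501 CPM per kb, Clcn6 with 20.9 ± 1.504 and 21.1 ± 1.10, Clcn3 with 13.2 ± 0.530 and 14.05 ± 0.778, Ano6 with 8.83 ± 0.116 and 8.82 ± 0.345, and Ano1 with 3.55 ± 0.419 and 2.73 ± 0.650 CPM per kb (SD, n = 6 and n = 5). In both strains the libraries of each of these 6 genes did not overlap with those of the gene next below, so the order was the same in BALB/c and B10.D2. Slc12a5 and Ano2 were low, and their ranges overlapped in both strains: Slc12a5 had 0.159 ± 0.0436 and 0.108 ± 0.0282 CPM per kb and Ano2 had 0.1501 ± 0.0180 and 0.172 ± 0.0397 CPM per kb (SD, n = 6 and n = 5). Per kb of exon, the chloride importer Slc12a2 was thus far above the exporter Slc12a5 in sham ganglia of both strains. Best1 was the lowest gene in BALB/c, with 0.0176 ± 0.0177 CPM per kb (SD, n = 6), but stood between Ano1 and Ano2 in B10.D2, with 0.953 ± 0.133 CPM per kb (SD, n = 5). The order among Clcn6, Clcn3 and Ano6 rested on the length used. With the longest transcript instead of all exons, the mean over the 11 sham libraries was 28.3 CPM per kb for Clcn3, 23.96 for Clcn6 and 21.98 for Ano6.

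**Figure D1:**
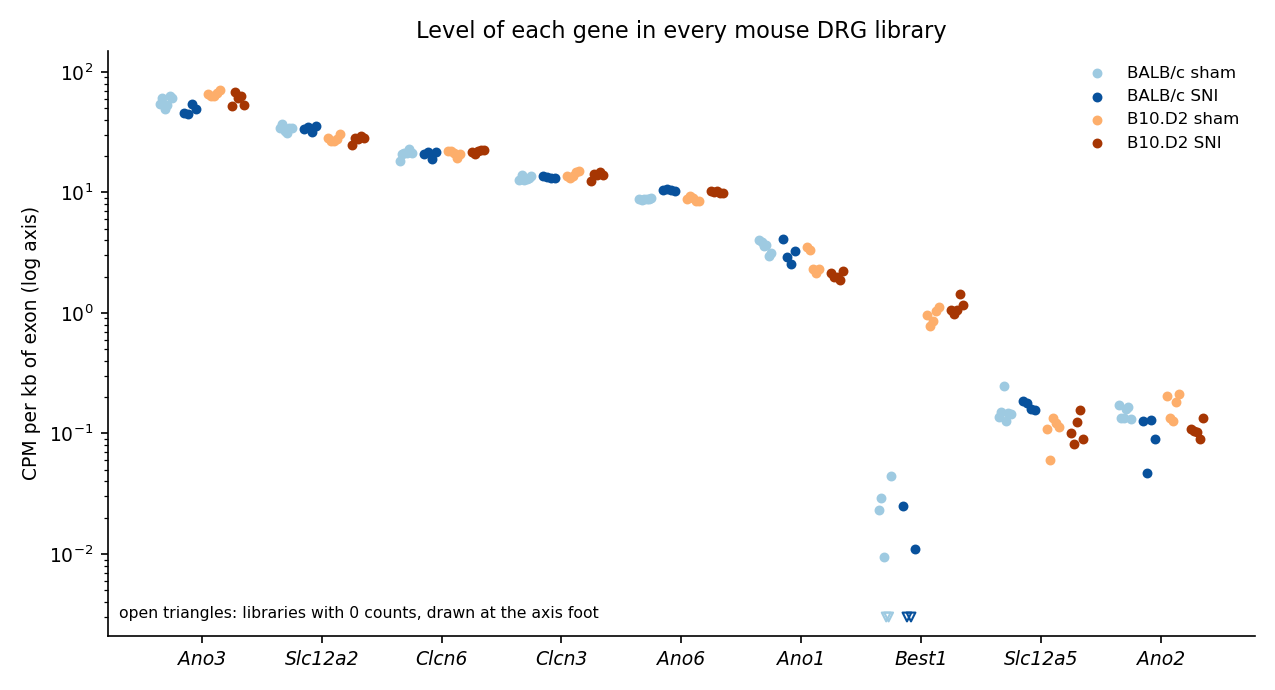
Level of each gene in every mouse library, in CPM per kb of annotated exon on a log axis, with 1 point per library coloured by strain and surgery. Ano3 sits highest and Slc12a5 and Ano2 low in all groups, whereas Best1 splits by strain, near 1 CPM per kb in B10.D2 and at or near 0 counts in BALB/c.

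Which of these genes respond to nerve injury was asked in each strain and in rat. In BALB/c, 1 of 9 members was called, Ano6, which rose, and in B10.D2 again 1 of 9 was called, the rise of Ano6. Over all 24685 features tested in mouse, 9.69% passed in BALB/c (4.82% upward and 4.87% downward) and 4.58% in B10.D2 (2.1% higher and 2.48% lower), so that the share of members called was near the background. The median log2 fold change over the members was -0.01 in BALB/c and 0.01 in B10.D2, beside 0.00 and 0.01 over all features. In rat, 6 members passed the filter on low counts and 2 were called, with Ano6 higher and Ano3 lower, where 27.4% of 13690 features were called (12.3% higher and 15.1% lower). Slc12a2 and Clcn3 were listed at 0 in all 8 rat libraries, and Ano2 fell under the filter. The injury itself was visible in the marker genes. All 11 injury-induced genes of the list rose in BALB/c and 10 of 11 in B10.D2. An example is Atf3, a transcription factor of injured neurons, with a log2 fold change of 3.24 ± 0.29 (SE) in BALB/c and 2.69 ± 0.30 in B10.D2. In rat all 6 that were tested rose, but 3 of the 10 found in the table, Atf3, Gap43 and Stmn4, were listed at 0.

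**Figure D2:**
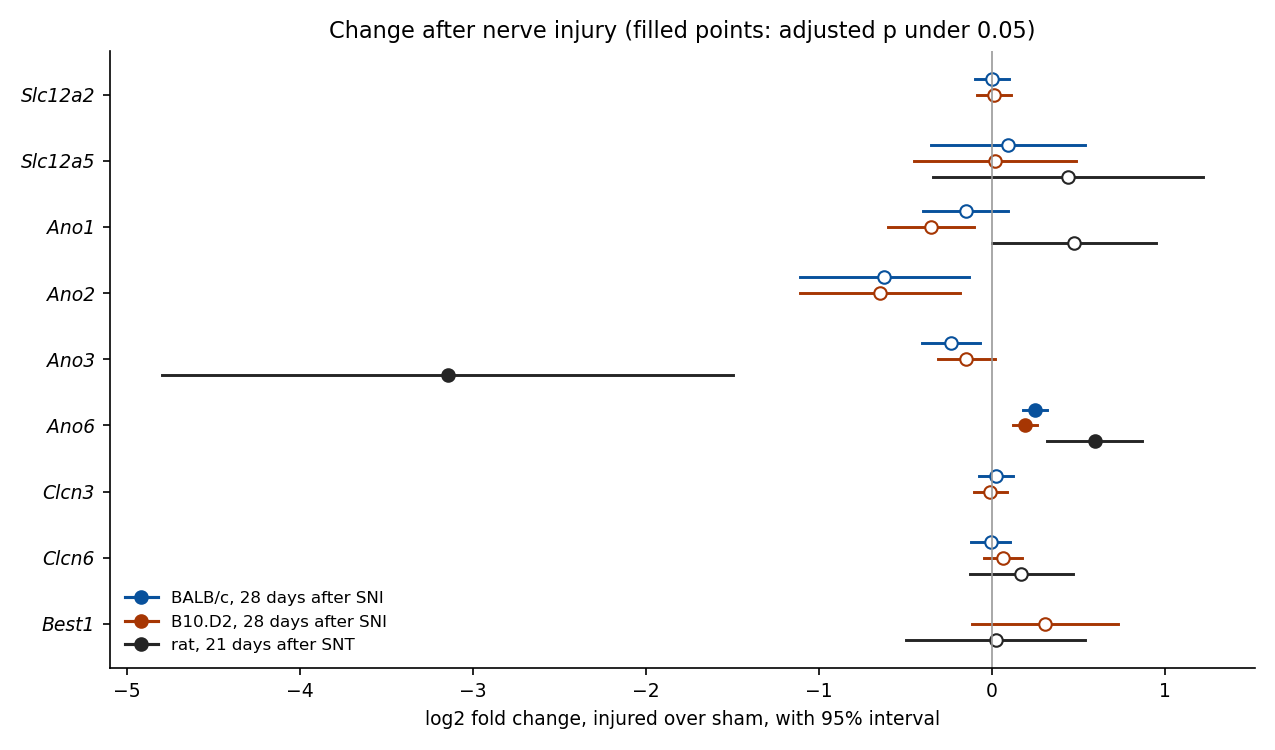
Log2 fold change of injured over sham for each gene in BALB/c, B10.D2 and rat, with its 95% interval and a filled point where the adjusted p-value was under 0.05. Ano6 lies above 0 in all 3 comparisons, Ano3 lies at -3.15 in rat, and in mouse Slc12a2, Clcn3 and Clcn6 sit close to 0 with intervals within -0.12 to 0.18. Best1 in BALB/c, at or near 0 counts, and rat genes that were not tested are not drawn.

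Ano6 (ENSMUSG00000064210, mm10 chr15:95790843-95974751, plus strand), the phospholipid scramblase, rose by a small and even amount in mouse. In BALB/c sham libraries it lay at 107 CPM (lowest), 108 CPM (median) and 111 CPM (highest), and the 4 SNI libraries had 128, 131, 129 and 127 CPM. In B10.D2 the sham libraries had 109, 114, 109.7, 104 and 105 CPM, and the SNI libraries 126, 124, 126, 122 and 120.5 CPM. In both strains every SNI library was above every sham library. Its change on the log2 scale was 0.25 ± 0.03 in BALB/c (SE; adjusted p = 3.3e-05), a rise of 18.9%, and 0.19 ± 0.03 in B10.D2 (SE; adjusted p = 0.0011), a rise of 14.2%. The difference between these changes was -0.06 ± 0.05 (SE), with a 95% interval of -0.15 to 0.04 (adjusted p = 1.0). In rat, Ano6 had 108, 118, 113 and 148 CPM in sham and 162, 201, 183 and 189 CPM in SNT. The groups did not overlap, although sham 4, with 148 CPM, and SNT 1, with 162 CPM, lay nearest to each other. The log2 fold change was 0.59 ± 0.12 (SE; adjusted p = 0.013), and it was 0.76 ± 0.10 without sham 4 and SNT 1 (SE; adjusted p = 4.6e-04). Leaving out any 1 library kept Ano6 called in all 3 comparisons, with log2 fold changes of 0.23 to 0.26 in BALB/c, 0.17 to 0.21 in B10.D2 and 0.56 to 0.72 in rat.

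Markers of other cells moved with Ano6 in part. In bulk tissue, fewer cells of a type and less RNA per cell cannot be told apart. Macrophage markers summed to 64.7 to 159 CPM in BALB/c sham and 130.0 to 203 CPM in SNI, where 3 of 9 were called higher, and to 136 to 152 CPM in B10.D2 sham and 149 to 260 CPM in SNI, where edgeR called 0 of 9 but 7 had an unadjusted p-value under 0.05. In rat they summed to 113 to 460 CPM in sham and 387 to 574 CPM in SNT, where 1 of 5 tested was called higher and 4 of 9, including Aif1 and Csf1r, were listed at 0. Of the satellite glia markers, edgeR called 0 of 6 in either strain, with 1 in each at an unadjusted p-value under 0.05. Markers of fibroblasts moved with Ano6 in part in rat, where 2 of 3 tested, Col3a1 and Lum, were called higher and the list summed to 2976 to 5330 CPM in sham and 6619 to 10776 CPM in SNT, and Schwann cell markers were called higher for 2 of 3 and lymphocyte markers for 2 of 4. Without sham 4 and SNT 1, 5 of 5 macrophage, 3 of 3 Schwann cell, 2 of 3 fibroblast and 4 of 5 lymphocyte markers were called higher. In both mouse strains 1 of 5 fibroblast markers, Lum, rose. In BALB/c 1 of 4 endothelium and 1 of 6 Schwann cell markers were called higher, and in B10.D2 0 of either list were called. Of 6 lymphocyte markers edgeR called 0 in either strain, with 3 in BALB/c and 0 in B10.D2 at an unadjusted p-value under 0.05. The part of other cell types in the Ano6 change was not tested. Over the 20 mouse libraries, after strain and sex were removed by a linear fit, the annotated genes whose log2(CPM + 1) followed Ano6 most closely were Chl1, a neural cell adhesion molecule, and Stard13, a GTPase-activating protein, with Pearson's r of 0.97 and 0.96 among 20922 genes. These values are a description, since the libraries share their surgery and all 3 genes changed with it. Chl1 rose by 1.02 on the log2 scale in BALB/c and by 0.66 in B10.D2, and Stard13 by 0.42 and 0.24.

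An assembled antisense transcript, LncRNA2900 (chr15:95913573-95969366, minus strand), overlaps 936 exonic bases of Ano6. Assembled LncRNAs are transcripts that the study built from its own reads. LncRNA2900 had 2.23 to 4.91 CPM in BALB/c sham, 2.93 to 3.71 CPM in BALB/c SNI, 1.96 to 3.07 CPM in B10.D2 sham and 1.84 to 3.11 CPM in B10.D2 SNI. The groups overlapped in both strains, and the log2 fold change of 0.05 ± 0.19 in BALB/c (SE; adjusted p = 0.90) and 0.12 ± 0.19 in B10.D2 (SE; adjusted p = 0.82) was not called. Libraries were strand-specific, but the strand setting of the counting is not given in the sources used here, so the values of both partners are uncertain. Ano6 also overlaps the annotated opposite-strand genes A130051J06Rik, Gm17546, Gm25070, Gm49172 and Gm49173, to which the same limit applies. The same holds for Clcn6, Ano3 and Ano1, which overlap the annotated opposite-strand genes Gm13207, Muc15 and Gm44930. Ano2 overlaps the annotated genes Gm16303 and Gm24947 on its own strand, and the effect of this on its counts was not tested.

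Ano3 (ENSMUSG00000074968, mm10 chr2:110655201-110950923, minus strand), the most abundant member per kb, showed the largest change of the group, and it was in rat. The rat sham libraries had 639, 626, 603 and 316 CPM, and the SNT libraries 179, 16.2, 18.4 and 33.1 CPM. Every SNT library was below every sham library, and the intermediate values of 316 and 179 CPM belonged to sham 4 and SNT 1, the libraries that stood apart on the first principal component. Its change was -3.15 ± 0.74 on the log2 scale (SE; adjusted p = 0.016), an 8.85-fold fall, and -4.78 ± 0.27 without both libraries (SE; adjusted p = 7.5e-06), a 27.5-fold fall. Leaving out single libraries gave -4.60, without SNT 1, to -2.83, with Ano3 called each time. DESeq2 gave no adjusted p-value for Ano3. The sensory neuron markers of the rat fell as well, in 4 of the 6 that were tested, with a median log2 fold change of -1.11. The sodium channels Scn10a and Scn9a fell by 2.22 and 1.13, Avil by 1.42 and the neuronal transcription factor Isl1 by 1.09 on the log2 scale, whereas Prph, an intermediate filament of small neurons, changed by 0.04 ± 0.20 (SE). Without sham 4 and SNT 1, 5 of the 6 fell, with a median of -1.50, Scn10a by 3.28 and Scn9a by 1.45, and Prph changed by -0.03 ± 0.23 (SE). The summed neuron markers ranged from 6219 to 9110 CPM in sham and 4112 to 7429 CPM in SNT, and the part of neuron loss or of lower levels per neuron in the fall of Ano3 was not tested.

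In mouse the change of Ano3 was small. BALB/c sham libraries had 354 CPM (lowest), 416 CPM (median) and 459 CPM (highest), and SNI libraries 329, 323, 389 and 356 CPM. B10.D2 sham libraries had 472, 452, 458, 487 and 511 CPM, and SNI libraries 374, 489.8, 441, 455 and 386 CPM. The groups overlapped in both strains. The log2 fold change was -0.24 ± 0.08 in BALB/c (SE; adjusted p = 0.068) and -0.15 ± 0.08 in B10.D2 (SE; adjusted p = 0.37), with 95% intervals of -0.41 to -0.07 and -0.31 to 0.02. The BALB/c value passed the threshold with DESeq2 (adjusted p = 0.036), without the filter on low counts (adjusted p = 0.023), and when SNI 65 or sham 55 was left out. Neuron markers fell in mouse for 4 of 13 genes in each strain, among them the neurofilament genes Nefh and Nefm, and the nociceptor channels Scn9a, Scn10a and Trpv1 were not called. In edgeR, 7 of 13 in BALB/c and 6 of 13 in B10.D2 had an unadjusted p-value under 0.05. The median log2 fold change over the list was -0.14 and -0.11. Their sums were 10782 to 12399 CPM in BALB/c sham and 9696 to 11051 CPM in SNI. In B10.D2 they were 11090 to 12350 CPM in sham and 9521 to 11639 CPM in SNI. The part of neurons in the mouse Ano3 change was not tested. Mouse SNI at 28 days and rat SNT at 21 days differ in species, injury, ganglion, day and RNA selection, so the sizes of the mouse and rat changes stand side by side and were not compared. Of the assembled LncRNAs, 3 lie within 10000 bases of Ano3. LncRNA444 lies beyond the end of the gene on the same strand, with a gap of 7433 bases. LncRNA445 lies inside the gene on the same strand, and LncRNA4012 lies inside it on the opposite strand without exon overlap. None was called on injury in either strain, with adjusted p-values of 0.27 to 0.999. LncRNA4012, at 3 to 18 counts per library, was higher in B10.D2 than in BALB/c SNI ganglia, with 0.366 ± 0.111 CPM (SD, n = 5) against 0.133 ± 0.0208 CPM (SD, n = 4), a log2 difference of 1.46 ± 0.35 (SE; adjusted p = 0.0040), and in sham ganglia the difference was 0.69 ± 0.29 (SE; adjusted p = 0.097).

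**Figure D3:**
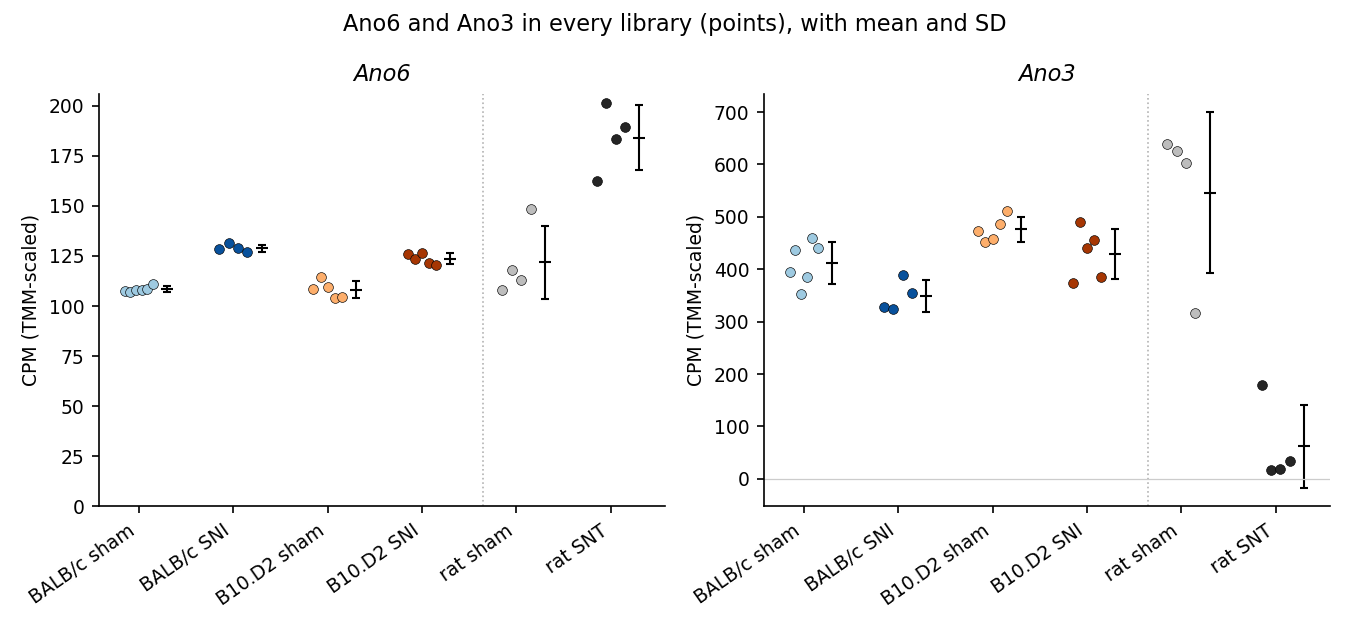
Ano6 (left) and Ano3 (right) in CPM in every library, with the mean and SD of each group beside its points and a dotted line between mouse and rat. Ano6 shifts up without overlap in both mouse strains and in rat, and Ano3 in rat drops from 316 to 639 CPM in sham to 16.2 to 179 CPM after SNT, with 1 library of each group in between.

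Ano6 and Ano3, which moved in opposite directions in rat, and Best1, which differed by strain, are shown with the 250 bases before their first listed start site in the mouse genome (RefSeq, GRCm38.p6, 5′ to 3′ on the gene's strand). The Ano6 bases are chr15:95790593-95790842 on the plus strand, the Ano3 bases chr2:110950245-110950494 on the minus strand and the Best1 bases chr19:10001634-10001883 on the minus strand. The Ano3 bases lie inside the gene as annotated above, whose first base on the minus strand is chr2:110950923. They precede the RefSeq start and not the annotated start of the gene. The Best1 bases from chr19:10001669 on lie inside Rab3il1, a gene on the opposite strand. Whether this start of Best1 was used in the ganglia was not tested.
Ano6: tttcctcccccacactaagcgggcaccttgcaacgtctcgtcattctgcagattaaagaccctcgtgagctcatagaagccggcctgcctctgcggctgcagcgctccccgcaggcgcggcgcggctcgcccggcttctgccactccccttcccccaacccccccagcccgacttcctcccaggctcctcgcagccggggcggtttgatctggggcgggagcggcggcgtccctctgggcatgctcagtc
Ano3: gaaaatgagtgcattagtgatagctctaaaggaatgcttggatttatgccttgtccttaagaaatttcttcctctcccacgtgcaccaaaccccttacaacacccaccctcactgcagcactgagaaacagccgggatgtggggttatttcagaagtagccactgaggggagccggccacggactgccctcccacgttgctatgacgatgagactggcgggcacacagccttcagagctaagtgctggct
Best1: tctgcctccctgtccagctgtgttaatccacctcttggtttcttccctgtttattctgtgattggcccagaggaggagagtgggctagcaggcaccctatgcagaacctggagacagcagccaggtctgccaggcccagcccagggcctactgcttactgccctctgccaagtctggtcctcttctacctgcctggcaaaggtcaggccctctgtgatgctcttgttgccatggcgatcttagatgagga
Promoters of 8 of the 9 members were matched by symbol, 13 in all since some genes have several starts. The Ano6 bases hold 68.4% G and C, those of Best1 56.8% and those of Ano3 52.4%. The letters TGACTCA, a core that AP-1 factors such as Jun bind, and TGACGTCA, the cyclic AMP response element, were searched on both strands from 250 bases before to 50 bases after each start. Neither motif contains the other. TGACTCA was found in 1 of the 13 promoters, that of Slc12a5 162 bases before the start, and in 5.20% of all 32851 promoters. TGACGTCA was found in 1 of 13, that of Clcn3 from 11 bases after the start, and in 1.79% of all promoters. None of the promoters of Ano6, Ano3 and Best1 held either, which says only that these letters are not in these windows.

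The calcium-activated channels Ano1 and Ano2 had negative changes after SNI in both strains, none of which was called. Ano1 (mm10 chr7:144588549-144751974) in BALB/c had 18.7 CPM (lowest), 22.6 CPM (median) and 25.4 CPM (highest) in sham and 25.8, 18.3, 16.05 and 20.5 CPM in SNI. In B10.D2 it had 22.2, 20.7, 14.4, 13.5 and 14.6 CPM in sham and 13.3, 12.4, 12.5, 11.8 and 13.9 CPM in SNI. The ranges overlapped in both strains, and in B10.D2 the overlap came from sham 77 at 13.5 CPM and SNI 90 at 13.9 CPM. Its change on the log2 scale was -0.15 ± 0.12 in BALB/c (SE; adjusted p = 0.49) and -0.35 ± 0.12 in B10.D2 (SE; adjusted p = 0.11), and leaving out B10.D2 sham 88 brought the latter to -0.42 (adjusted p = 0.049). In rat, Ano1 had 16.8, 23.7, 16.5 and 31.1 CPM in sham and 23.9, 31.4, 32.6 and 34.6 CPM in SNT. Sham 4, at 31.1 CPM, lay within the SNT range, and SNT 1 was the lowest SNT library. The log2 fold change of 0.47 ± 0.21 (SE; adjusted p = 0.12) was not called with all libraries and was 0.79 ± 0.16 without sham 4 and SNT 1 (SE; adjusted p = 0.0034), and 0.70 (adjusted p = 0.016) without sham 4 alone. Without both libraries 3 of the 6 members were called, Ano6, Ano3 and Ano1, where 43.9% of 13892 features were. The other 3 were not called there, with log2 fold changes of 0.62 for Slc12a5, 0.21 for Clcn6 and 0.22 for Best1 (adjusted p = 0.26, 0.31 and 0.49).

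Ano2 (mm10 chr6:125690419-126040126) was near the limit of detection, with 10 to 47 counts per mouse library. It had 0.713 to 0.924 CPM in BALB/c sham and 0.681, 0.251, 0.6999 and 0.482 CPM in BALB/c SNI, which did not overlap. In B10.D2 it had 1.11, 0.724, 0.679, 0.985 and 1.13 CPM in sham and 0.586, 0.562, 0.558, 0.482 and 0.728 CPM in SNI, which overlapped. On the log2 scale the change was -0.62 ± 0.23 in BALB/c (SE; adjusted p = 0.11) and -0.65 ± 0.22 in B10.D2 (SE; adjusted p = 0.11), and neither was called, although leaving out BALB/c SNI 65 gave -0.86 (adjusted p = 0.049). In rat it had 3, 11, 8 and 23 counts in sham and 5, 2, 11 and 9 counts in SNT and was not tested.

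Neither cotransporter and neither CLC exchanger was called after injury. Slc12a2, the chloride importer (mm10 chr18:57878678-57946821), had 339.7 CPM (lowest), 375 CPM (median) and 402 CPM (highest) in BALB/c sham and 366, 381, 346 and 390.5 CPM in SNI. In B10.D2 it had 307, 291, 291, 305 and 331 CPM in sham and 273, 309, 303, 324 and 312 CPM in SNI. Its sham and SNI ranges overlapped in both strains. The log2 fold change was 0.00 ± 0.05 in BALB/c (SE; adjusted p = 0.99) and 0.01 ± 0.05 in B10.D2 (SE; adjusted p = 0.94), with 95% intervals of -0.10 to 0.10 and -0.09 to 0.11. Slc12a5, the exporter (mm10 chr2:164960802-164999731), with 15 to 76 counts per mouse library, changed by 0.09 ± 0.21 on the log2 scale in BALB/c and by 0.02 ± 0.22 in B10.D2 (SE; neither called), with 95% intervals of -0.35 to 0.54 and -0.45 to 0.49, which leave room for a change in either direction. In rat it had 5 to 11 counts in sham and 9 to 19 counts after SNT, and its log2 fold change was 0.44 ± 0.35 (SE; adjusted p = 0.36), not called.

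Clcn3 (mm10 chr8:60910389-60983300), the endosomal exchanger, had 225 ± 9.05 CPM in BALB/c sham (SD, n = 6) and 228.8 ± 4.93 in SNI (SD, n = 4), and 239.8 ± 13.3 CPM in B10.D2 sham (SD, n = 5) and 237.4 ± 14.1 in SNI (SD, n = 5). Its 95% intervals were -0.07 to 0.12 in BALB/c and -0.10 to 0.09 in B10.D2. Clcn6 (mm10 chr4:148004259-148038821), the late endosomal exchanger, had 124 ± 8.93 CPM in BALB/c sham (SD, n = 6) and 123 ± 7.76 in SNI (SD, n = 4), and 125 ± 6.52 CPM in B10.D2 sham (SD, n = 5) and 130.5 ± 4.08 in SNI (SD, n = 5). Its 95% intervals were -0.12 to 0.11 and -0.05 to 0.18. In mouse neither gene was called, and the intervals of both lay within -0.12 to 0.18 on the log2 scale. In rat, Clcn6 had 169.8, 249.3, 214 and 213 CPM in sham and 221, 261, 214 and 256 CPM after SNT, ranges that overlapped, and its log2 fold change was 0.17 ± 0.13 (SE; adjusted p = 0.35). The rat transcript LncRNA8228, which the study lists as antisense to Clcn6, had 5.43 ± 0.490 CPM in sham and 5.55 ± 0.548 CPM in SNT (SD, n = 4 each) and was not called, with a log2 fold change of 0.03 ± 0.15 (SE; adjusted p = 0.90), and 0.09 ± 0.19 without sham 4 and SNT 1 (SE; adjusted p = 0.74).

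Whether the strains differ in these genes was asked in sham ganglia. In sham ganglia 3 of 9 members were called between strains, Best1 higher in B10.D2 and Slc12a2 and Ano1 lower, where 21.6% of all features were called. In SNI ganglia 4 of 9 were called, the same 3 in the same directions and Ano3 higher in B10.D2, where 20.8% of features were called. Reads of both strains were aligned to a genome of the C57BL/6J strain, and the part of mapping in strain differences was not tested. Markers of other cells differed between the strains too. In sham ganglia 5 of 9 macrophage and 3 of 6 lymphocyte markers were higher in B10.D2. Lower there were 3 of 4 smooth muscle, 3 of 5 skeletal muscle, 2 of 4 endothelium and 2 of 6 satellite glia markers. Skeletal muscle sums were 9.31 to 1325 CPM in BALB/c and 8.46 to 21.8 CPM in B10.D2. Of 5 fibroblast markers 2 were higher and 1 lower, and of 13 sensory neuron markers 2 were higher and 1 lower. Of 11 injury-induced genes, 4 were lower in B10.D2 in SNI ganglia and 1 in sham ganglia. In SNI ganglia the list summed to 366 to 653 CPM in B10.D2 and 758 to 924 CPM in BALB/c. The part of these cell types and of the injury response in the strain differences was not tested. Slc12a2 was lower in B10.D2, with 305 ± 16.4 CPM against 371 ± 21.6 CPM in BALB/c sham (SD, n = 5 and n = 6), and the libraries of the strains did not overlap. The log2 difference was -0.29 ± 0.04 in sham (SE; adjusted p = 4.8e-05) and -0.28 ± 0.05 in SNI (SE; adjusted p = 2.4e-04). Ano1 was lower by 0.42 ± 0.11 on the log2 scale in B10.D2 sham (SE; adjusted p = 0.0096), where the libraries overlapped, and by 0.62 ± 0.12 in B10.D2 SNI (SE; adjusted p = 9.4e-04), where every B10.D2 library, at 11.8 to 13.9 CPM, was below every BALB/c library, at 16.05 to 25.8 CPM. Ano3 differed by 0.21 ± 0.07 in sham (SE; adjusted p = 0.052) and by 0.30 ± 0.08 in SNI (SE; adjusted p = 0.013), with overlap in both. The sham difference of Ano3 lay at the threshold. It passed with DESeq2 (adjusted p = 0.040), which called 4 of 9 members in sham, without the filter on low counts (adjusted p = 0.026), without the sex term (adjusted p = 0.047), with a minimum of 10 counts in every library (adjusted p just under the threshold), with the sham libraries alone (adjusted p = 0.047) and when BALB/c sham 51, 57 or 71 was left out. Slc12a5 differed by -0.55 ± 0.21 (SE; adjusted p = 0.069). Ano6, Clcn3, Clcn6 and Ano2 had log2 differences of -0.00, 0.09, 0.01 and 0.19 in sham and were not called.

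Best1 (ENSMUSG00000037418, mm10 chr19:9985174-10001633, minus strand) was the member that differed most between strains. The 6 BALB/c sham libraries had 2, 3, 1, 0, 0 and 4 counts and the 4 BALB/c SNI libraries 2, 0, 0 and 1 counts. The B10.D2 sham libraries had 85, 67, 82, 101 and 119 counts, or 2.48, 2.02, 2.23, 2.69 and 2.87 CPM, and the SNI libraries 98, 99, 113, 139 and 107 counts, or 2.74, 2.53, 2.74, 3.72 and 3.00 CPM. The lowest B10.D2 library was 17.7 times above the highest BALB/c library. Pooled over libraries, 454 counts in B10.D2 sham against 10 in BALB/c sham gave a ratio of 54.4, with an exact 95% interval of 29.3 to 114 that covers counting error only, and 556 against 3 counts in SNI gave 142, with an interval of 48.2 to 688. The fitted log2 difference was 5.64 ± 0.32 in sham (SE; adjusted p = 1.6e-11), and 45 of the 2847 features called higher in B10.D2 had a larger one. In BALB/c, Best1 was at or near the floor of 3 counts in sham and SNI alike, so no injury fold is given. In B10.D2 the injury change was 0.31 ± 0.20 (SE; adjusted p = 0.49), with a 95% interval of -0.11 to 0.73. In rat, Best1 had 2.16, 2.74, 2.35 and 2.93 CPM in sham and 1.90, 3.54, 2.61 and 2.29 CPM in SNT, and it was not called, with a log2 fold change of 0.02 ± 0.23 (SE; adjusted p = 0.95) and a 95% interval of -0.49 to 0.54.

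**Figure D4:**
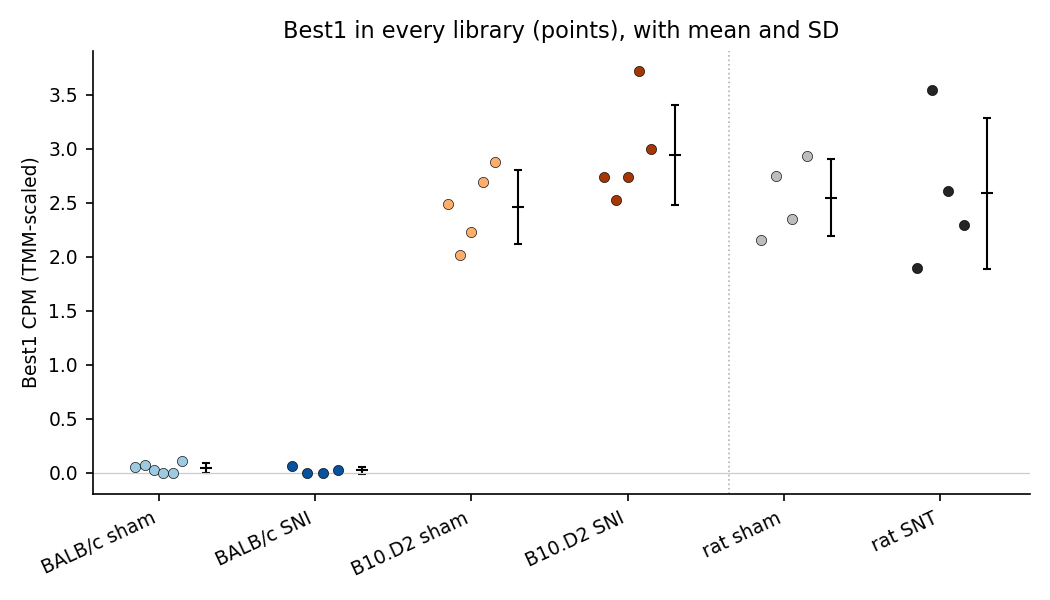
Best1 in CPM in every library, with the mean and SD of each group beside its points and a dotted line between mouse and rat. All 10 B10.D2 libraries lie at 2.02 to 3.72 CPM and all 10 BALB/c libraries at 0 to 0.114 CPM, and surgery does not separate the libraries within B10.D2 or rat.

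The Best1 locus is crowded. Fth1, which encodes the ferritin heavy chain, ends 76 bases from the end of Best1 on the opposite strand, and Rab3il1, a guanine nucleotide exchange factor for Rab proteins, starts 36 bases from its start on the opposite strand. Both were chosen after their values were seen. Fth1 was lower in B10.D2 than in BALB/c sham, with 273 ± 53.5 CPM against 359 ± 48.9 CPM (SD, n = 5 and n = 6) and a log2 difference of -0.39 ± 0.10 (SE; adjusted p = 0.0081), the direction opposite to Best1. Its sham libraries overlapped, at 224 to 356 CPM in B10.D2 and 310 to 429 CPM in BALB/c. Rab3il1 had 15.2 ± 1.54 CPM in B10.D2 sham (SD, n = 5) and 13.0 ± 2.61 CPM in BALB/c sham (SD, n = 6), and its log2 difference of 0.24 ± 0.12 (SE; adjusted p = 0.17) was not called. Of 13 annotated introns of Best1, 8 coincided with a deposited splice junction, and the outermost deposited junction inside the gene ended 8714 bases short of its annotated start. The junction positions used here are not split by library, so it could not be told in which strain they were used. Among the other members, 17 of 34 annotated introns of Slc12a5 and 16 of 29 of Ano2 coincided with a deposited junction, lower shares than in Best1. It was 13 of 17 in Clcn3, 19 of 25 in Ano6 and 27 of 31 in Ano1. It was 23 of 26 in Clcn6, 24 of 26 in Slc12a2 and 25 of 27 in Ano3.

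Whether injury changed a member differently in the strains was tested as the difference of the changes. The model in edgeR called 0 of 9 members, with adjusted p-values of 1.0 and none with an unadjusted p-value under 0.05, and DESeq2 also called 0. Over all features 0.0243% were called and 1073 of 24685 had an unadjusted p-value under 0.05. The 95% intervals of the difference, B10.D2 minus BALB/c on the log2 scale, were -0.15 to 0.04 for Ano6, -0.14 to 0.32 for Ano3, -0.55 to 0.15 for Ano1 and -0.71 to 0.66 for Ano2. The interval of Slc12a5 was -0.72 to 0.57. The intervals were -0.13 to 0.15 for Slc12a2, -0.17 to 0.10 for Clcn3 and -0.09 to 0.23 for Clcn6. None is given for Best1, which was at or near the floor in BALB/c.

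Between females and males, 0 of 9 members were called by edgeR and 0 by DESeq2, where 0.243% of features were called. Ano1 and Slc12a2 had an unadjusted p-value under 0.05. Ano1 averaged 16.4 CPM in 10 female and 19.9 CPM in 10 male libraries, a log2 difference of -0.24 ± 0.08 (SE; adjusted p = 0.25). In B10.D2 sham the males had 22.2, 20.7 and 14.6 CPM of Ano1 and the females 14.4 and 13.5 CPM, and in BALB/c SNI the males had 25.8 and 20.5 CPM and the females 18.3 and 16.05 CPM. In these groups every female was below every male. In BALB/c sham the males had 25.4, 24.4 and 19.5 CPM and the females 22.3, 22.8 and 18.7 CPM, and in B10.D2 SNI the females had 13.3, 12.4 and 12.5 CPM and the males 11.8 and 13.9 CPM, so that the sexes overlapped there. Slc12a2 averaged 328 CPM in females and 347 CPM in males, a log2 difference of -0.08 ± 0.03 (SE; adjusted p = 0.31).

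A wider list of 74 other chloride channels, carriers and their kinases set the members beside their families. Of the 62 tested in mouse, 5 passed in BALB/c, of which 4 rose and 1 fell, and 3 in B10.D2, with 2 higher and 1 lower, where 9.69% and 4.58% of all features were called. The share of the list was near that background in both strains. The largest rises were in Clca3a2 and Clca1, members of the Clca family of regulators of calcium-activated chloride channels. Clca3a2 rose from 0.215 ± 0.138 CPM in BALB/c sham (SD, n = 6) to 1.91 ± 0.662 CPM in SNI (SD, n = 4) and from 0.202 ± 0.0128 to 1.496 ± 0.312 CPM in B10.D2 (SD, n = 5 each), changes of 3.17 ± 0.29 on the log2 scale (SE; adjusted p = 3.8e-07) and 2.94 ± 0.31 (SE; adjusted p = 8.1e-06). Clca1 rose from 0.0646 to 0.321 CPM in BALB/c and from 0.106 to 0.461 CPM in B10.D2, by 2.19 ± 0.56 and 2.15 ± 0.49 on the log2 scale (SE; adjusted p = 0.015 and 0.011). BALB/c sham libraries held only 1 to 3 counts of Clca1, so its fold is imprecise. Clca genes lie in a family of close paralogs, so reads may be shared among them and their values are uncertain. Leaving out BALB/c SNI 49 or SNI 64 took the BALB/c rise of Clca1 to 1.68 (adjusted p = 0.10) or 1.99 (adjusted p = 0.062). Cab39, a scaffold that activates the kinases of the cotransporters, fell in both strains, by 0.14 ± 0.04 in BALB/c and 0.17 ± 0.03 in B10.D2 on the log2 scale (SE; adjusted p = 0.012 and 0.0070). In BALB/c, Clic4, an intracellular chloride channel protein, rose by 0.40 ± 0.09 (SE; adjusted p = 0.0048), and Clic1 of the same family by 0.27 ± 0.05 (SE; adjusted p = 0.0022), named after its value was seen. None of the 7 other cation-chloride cotransporters, 6 other anoctamins, 6 other CLC genes and 5 Lrrc8 subunits of the volume-regulated channel that were tested was called in either strain by edgeR, with 3 of these 24 in BALB/c and 4 in B10.D2 at an unadjusted p-value under 0.05. Of the 62 genes, 0 were called for a strain difference in the injury change and 0 between sexes (0 and 6 at an unadjusted p-value under 0.05), and between strains in sham 13 of 62 were called, 6 higher and 7 lower in B10.D2. The share of list genes was thus near the 21.6% of all features. The largest differences were positive for Clic3, Slc4a10 and Slc26a7, with 1.31, 0.64 and 0.62 on the log2 scale, and negative for Best3, Lrrc8e and Clic5, with -2.03, -0.99 and -0.51. Slc4a10 was not called by DESeq2 (adjusted p = 0.055), among annotated genes alone, without the sex term or with the sham libraries alone, nor after 8 of the 11 sham libraries were left out in turn, and Slc26a7 lost its call in 5 and Clic3 in 3 of these 11 cases. In SNI ganglia, Lrrc8e, Clic5 and Slc26a7 were called in the same direction, whereas Clic3 differed by 0.35 (adjusted p = 0.70), Best3 by -0.91 (adjusted p = 0.25) and Slc4a10 by 0.72 (adjusted p = 0.050), none of them called.

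In rat, 28 of the 66 listed genes found in the table were at 0 in all libraries, 30 were tested and 14 were called, 6 higher and 8 lower, where 27.4% of all features were. Without sham 4 and SNT 1, 15 of 30 were called, 6 higher and 9 lower, where 43.9% of all features were. Among the rises were Clic4, by 0.98 ± 0.16 on the log2 scale (SE; adjusted p = 0.011), and Slc4a8, a sodium-driven chloride bicarbonate exchanger, by 0.76 ± 0.21 (SE; adjusted p = 0.028). The largest falls were in Slc12a1, the kidney form of the sodium-potassium-chloride cotransporter, by 1.33 ± 0.40, in Clic3 by 1.26 ± 0.37 and in Slc4a11 by 1.05 ± 0.28 on the log2 scale (SE; adjusted p = 0.037, 0.031 and 0.024), all genes at or under 11.1 CPM in sham. These 3 and Slc4a8 lost the threshold when most single libraries were left out. Without sham 4 and SNT 1 together all 5 were called, with log2 fold changes of 1.18 for Clic4, 0.96 for Slc4a8, -1.90 for Slc12a1, -1.82 for Clic3 and -1.48 for Slc4a11. Cab39, named in rat for its mouse values, fell there as well, from 562 ± 54.4 to 409 ± 64.4 CPM (SD, n = 4 each), by 0.46 ± 0.14 on the log2 scale (SE; adjusted p = 0.033), and by 0.58 ± 0.13 without the 2 libraries (SE; adjusted p = 0.0065).

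**Figure D5:**
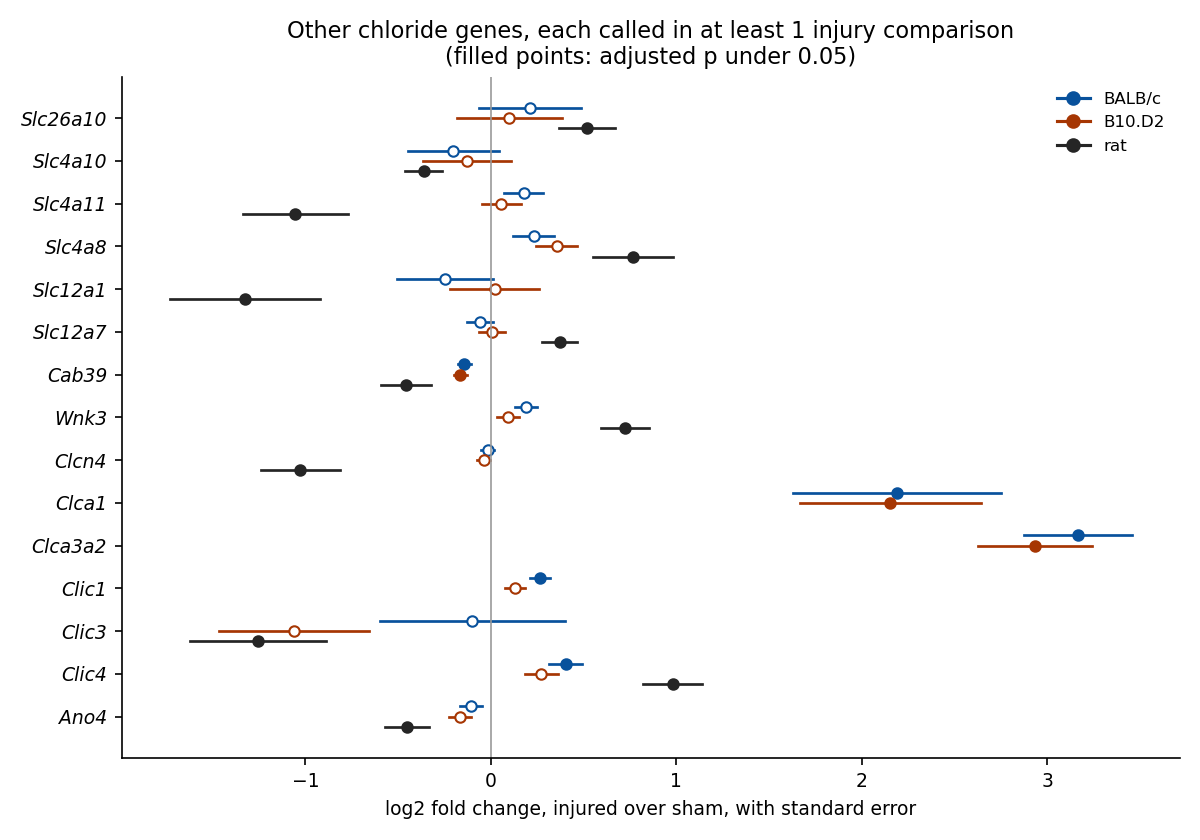
Change after injury (log2 of injured over sham, with the standard error) for 15 genes of the wider list, each called in at least 1 of the BALB/c, B10.D2 and rat comparisons, with filled points where the adjusted p-value was under 0.05. Clca3a2 and Clca1 rise by 2.15 to 3.17 in both mouse strains, and Cab39 lies below 0 in all 3 comparisons.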

How the data were processed

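RNA of mouse (ribosomal RNA removed) and rat (polyadenylated RNA) was sequenced by the authors as strand-specific read pairs, which they aligned with STAR to mm10 or rn6 and counted read pairs per gene with HTSeq. The deposited tables hold raw counts. Deposited result tables, which hold the authors' DESeq2 fold changes and p-values, were used only for gene symbols, and deposited annotation for positions. Among the labelled mice, BALB/c SNI 66 and B10.D2 sham 59 were not analysed here.

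For each feature the two-sided quasi-likelihood test in edgeR 4.0.16 (R 4.3.3) was run after TMM scaling and filterByExpr, with group and sex over 20 mouse libraries and with surgery alone over 8 rat libraries. P-values were adjusted by Benjamini-Hochberg over all features tested. A standard error is the size of the estimate over the root of its F statistic. The models were tested on simulated data with changes larger than those of Ano6 and Cab39 in mouse. That test does not bear on changes this small. Exon lengths came from GENCODE M21, promoters from RefSeq on GRCm38.p6, and no rat genome was used. Each library is 1 mouse or a pool of 3 rats. Mouse libraries carry the sample number of their title, and rat libraries are numbered in accession order. No pair of libraries was identical.

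The members and lists were chosen with earlier results of these data known. All 9 members are named in each comparison, tested or not. Of the wider list, up to 3 called genes per direction and comparison are named, and a gene that this rule would name in rat is not reported here. The genes closest to Ano6 are the 2 with the highest Pearson correlation. Alternatives were DESeq2 1.42.0 and its size factors, other filters, annotated genes alone, no sex term, the libraries of a comparison alone, each library left out, and the run number of the rat titles as a block. The SNI libraries for the strain contrast and the removal of rat sham 4 and SNT 1 were added after seeing the data.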

Additional observations from a re-analysis of the deposited data

Results flagged for a closer look

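Of 50 groups of a member's values in which the most extreme library was compared with the rest, 3 held a library farther away than Dixon's 95% limit, and chance gives about 1 in 20. Ano3 in rat sham 4, at 316 CPM, was far below the other sham libraries, and Ano3 in rat SNT 1, at 179 CPM, was far above the other SNT libraries. These are the libraries that stood apart over all features, and their injury-induced genes averaged 5.09 and 5.44 on the log2(CPM + 1) scale. Slc12a5 in BALB/c sham 55, at 1.83 CPM or 76 counts, was far above the other BALB/c sham libraries, and without it the BALB/c injury change of Slc12a5 was 0.26 on the log2 scale in place of 0.09, and neither was called.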

How the results depend on the processing

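Of 1459 alternative values, 1320 kept their direction and their side of the threshold, and 59 changed sign, none of them called before or after. In BALB/c, DESeq2 and no filter on low counts each called 2 members in place of 1, adding Ano3, and in rat DESeq2 called 1 in place of 2, since it gave Ano3 no adjusted p-value. Leaving out single libraries gave 1 to 3 members in BALB/c (3 without SNI 65, 2 without sham 55) and 1 to 2 in B10.D2 (2 without sham 88). With the longest transcript as length, mean sham levels per kb moved up to 52.3 CPM for Slc12a2, 4.33 for Ano1, 0.220 for Ano2, 21.98 for Ano6, 28.3 for Clcn3 and 23.96 for Clcn6. The sign of the near-zero BALB/c change of Slc12a2 turned with DESeq2 size factors in edgeR (-0.0032), DESeq2 (-0.0032), no filter (-0.0087) and a minimum of 10 counts (-0.0017), and without the sex term that of its B10.D2 change (-0.0046) and of its interaction (-0.0058). With single libraries left out, sign changes lay within -0.036 to 0.023 (BALB/c), -0.012 to 0.040 (B10.D2) and -0.014 to 0.045 (interaction) for Slc12a2, -0.054 to 0.026 for Clcn6 in BALB/c, -0.20 to 0.12 (B10.D2) and -0.29 to 0.025 (interaction) for Slc12a5, -0.032 to 0.023 for Clcn3 in B10.D2, -0.28 to 0.22 for the interaction of Ano2, -0.023 to 0.020 for Ano6 and -0.032 to 0.045 for Clcn6 between strains, -0.038 to 0.018 for Ano3 between sexes and -0.16 to 0.15 for Best1 in rat. Deviations of rat libraries with the same run number in their titles correlated at -0.29 to 0.050, and those with different numbers at -0.56 to 0.49. Same-numbered libraries were thus not closer, but so few values, centred within groups of 4 libraries, cannot decide whether a run was shared. With the run number as a replicate block 2558 of 14678 rat features were called against 3753 of 13690 without it, with 2 members called in both, and the block gave -3.86 for Ano3, 0.61 for Ano6, 0.52 for Ano1, -1.45 for Slc12a1 (not called) and -1.29 for Clic3 (not called). No paired analysis was possible in mouse because the labels share no replicate numbers between groups. Depth limits Slc12a5, Ano2, Best1 in BALB/c and the Clca genes, which had few counts.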
